A study of Homo sapiens with 2 samples.

Results

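PTBP1 and its paralogs PTBP2 and PTBP3 (formerly ROD1) encode polypyrimidine tract-binding proteins. All rows of the 5 deposited event tables whose gene symbol was PTBP1, PTBP2 or PTBP3 were taken, and no row carried the older symbol ROD1. They came to 105 events of 159490, namely 43 of PTBP1, 26 of PTBP2 and 36 of PTBP3. The tables come from RNA-seq of polyadenylated RNA from HEK293T, a human embryonic kidney line that carries the SV40 large T antigen. One library was made from control cells and 1 from cells kept with amiloride, a sodium channel blocker used as a diuretic, at 300 µg/mL for 6 h. rMATS defined the events, each of which sets an inclusion form of a transcript against a form that leaves a stretch out.

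The tables number the libraries without saying which is treated, so the columns of reads and inclusion levels were not used, nor were the deposited test results. The values below therefore describe which exons and junctions of the 3 genes were entered as alternative, and what leaving them out does to the transcript. They are not changes after amiloride. No depth, replicate error or test between conditions is given, and the labelled cell type could not be checked against its markers.

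These proteins carry several RNA recognition motifs and bind pyrimidine-rich RNA, often in the intron before an exon that they repress. PTBP1 is the form of most dividing cells, PTBP2 is prominent in neurons, and PTBP3 was first described in blood cells. PTBP1 is known to limit its own level. It represses a short exon of its own transcript, and the shortened transcript shifts frame and is degraded by nonsense-mediated decay. A matching short exon of PTBP2 is also repressed by PTBP1 outside neurons.

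The matching short exon was present in all 3 genes and was listed as skipped in each. It is exon 11 of PTBP1 and exon 10 of PTBP2 and PTBP3, counted along the canonical GENCODE transcript, and it measured 34 bases in each. The stretches are shown 5′ to 3′ from GRCh37 with 60 intron bases before the exon and 12 after it. Capitals mark the exon. The intron before it was rich in pyrimidines in PTBP1 and PTBP2, and near the median of all listed exons in PTBP3.
PTBP1 exon 11, chr19:807809-807914, plus strand: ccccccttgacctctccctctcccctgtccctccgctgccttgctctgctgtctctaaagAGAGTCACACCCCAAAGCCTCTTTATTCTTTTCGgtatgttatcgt
PTBP2 exon 10, chr1:97271915-97272020, plus strand: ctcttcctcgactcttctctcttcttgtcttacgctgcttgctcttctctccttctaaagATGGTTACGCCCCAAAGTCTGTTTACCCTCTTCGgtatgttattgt
PTBP3 exon 10, chr9:114993648-114993753, minus strand: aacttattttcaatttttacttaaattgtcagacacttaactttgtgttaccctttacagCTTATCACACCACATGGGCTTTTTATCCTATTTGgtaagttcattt

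The exons of PTBP1 and PTBP2 were identical at 25 of 34 bases (73.5%), those of PTBP1 and PTBP3 at 22 (64.7%) and those of PTBP2 and PTBP3 at 21 (61.8%). PTBP1 and PTBP2 had the same 9 bases at the 5′SS. PTBP3 differed from them there, and its upstream stretch was less rich in pyrimidines. C and T made up 69% of the 100 bases before the PTBP1 exon, 73% before the PTBP2 exon and 56% before the PTBP3 exon. The median over the 67154 distinct exons of the skipped-exon table was 55%, and the 3 values lay at the 96.5th, 98.6th and 55.5th percentile of these exons.

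TCTT, a core letter string of PTB binding sites, occurred 6 times in the 100 bases before PTBP2 exon 10, and all 6 lie in the 60 bases shown. Only 115 exons of the table (0.171%) had 6 or more. The PTBP1 exon had 1 such string in 100 bases and the PTBP3 exon had none, beside a median of 1 over all exons. Inside the exon, PTBP1 exon 11 held 2 of them, PTBP2 exon 10 held 1 and PTBP3 exon 10 held none. The string was searched on the transcript strand only, and overlapping matches were counted. A match is a string of letters and not a measured binding site.

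Leaving out the short exon had closely matching consequences for the reading frame in all 3 genes. Without it the frame shifted and met a stop in the next exon. PTBP1 then had 381 codons before the stop in place of 557, PTBP2 had 356 in place of 531 and PTBP3 had 348 in place of 524. The stop lay 361 bases before the last exon junction in each of them. Background knowledge places stops more than 50 bases before the last junction among those that can trigger nonsense-mediated decay. In GENCODE, the junction that joins the neighbours of the exon was present in 2 PTBP1 transcripts, both annotated as targets of that decay. It was present in 6 PTBP2 transcripts, 3 of them annotated as decay targets and none as protein-coding, and in no PTBP3 transcript.

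The exon before the short exon restored the frame when both were left out. Exons 10 and 11 of PTBP1 add up to 183 bases, and exons 9 and 10 add up to 174 bases in PTBP2 and in PTBP3. All 3 sums are multiples of 3. Events whose skipping form joins exon 8 to exon 12 in PTBP1, or exon 8 to exon 11 in PTBP2 and PTBP3, were listed in each gene. The PTBP1 junction also leaves out exon 9. These forms kept the annotated stop, with 470 codons in PTBP1, 473 in PTBP2 and 466 in PTBP3. None of these junctions was found in an annotated transcript.

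The 3 genes lie on different chromosomes and differ greatly in the length of their introns. PTBP1 (ENSG00000011304) covers chr19:797075-812327 on the plus strand, with 15 canonical exons and a median intron of 351.5 bases. PTBP2 (ENSG00000117569) covers chr1:97187221-97289294 on the plus strand, with 14 exons and a median intron of 1691 bases. PTBP3 (ENSG00000119314) covers chr9:114979996-115095944 on the minus strand, with 14 exons and a median intron of 3200 bases. The shortest introns of the 3 genes, of 73 bases each, are introns 7 and 14 of PTBP1. The microRNA gene MIR4745 lies inside intron 7, between exons 7 and 8, at chr19:804940-805001 on the same strand. A processed copy, PTBP1P, lies on chromosome 14 and has no introns, so reads on joined PTBP1 exons may be shared with it.

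Skipped exons made up 69 of the 105 events. PTBP1 had 31 of them, PTBP2 had 16 and PTBP3 had 22, beside a median of 6 over the 11965 genes of that table. These counts placed the genes at the 95.6th, 81.5th and 89.7th percentile of listed genes, with ties ranked at their midpoint. Genes with many exons can enter more events. Among genes with 10 or more distinct listed exons the counts lay at the 77.8th percentile for PTBP1 and the 52.1st for PTBP3. That set is chosen by listed exons, a number tied to the events themselves, and PTBP2 with 8 such exons is not in it.

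Mutually exclusive exons gave 27 events, with 11 for PTBP1, 6 for PTBP2 and 10 for PTBP3. Alternative 3′SS gave 1 event for PTBP1, 3 for PTBP2 and 2 for PTBP3. Alternative 5′SS gave none for PTBP1, 1 for PTBP2 and 2 for PTBP3. No retained intron of the 3 genes was among the 677 listed.

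**Figure D1:**
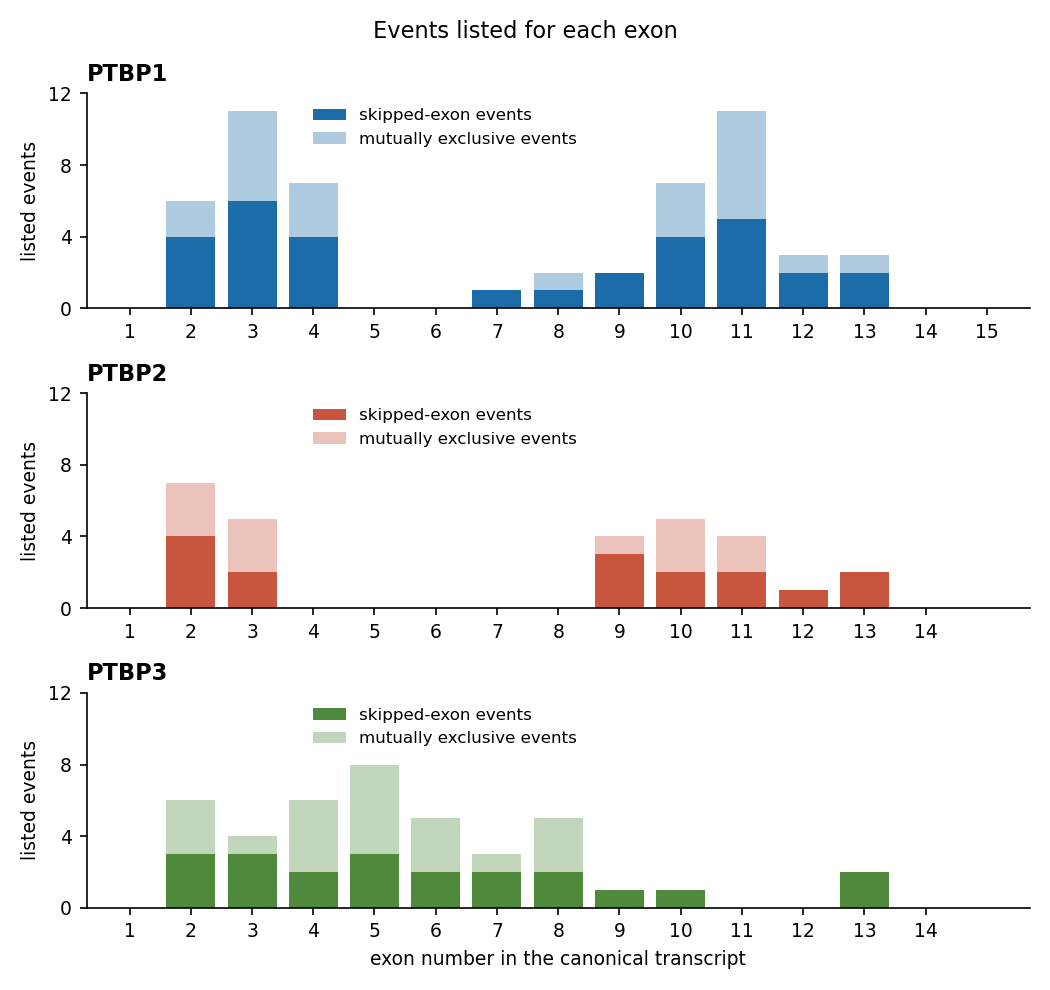
Number of listed skipped-exon events (dark) and mutually exclusive events (light) for each exon, by exon number in the canonical transcript of each gene, with the 2 forms of PTBP1 exon 9 and of PTBP2 exon 9 added together. Exons 3 and 11 of PTBP1 carry the most events, and exons 4 to 8 of PTBP2 carry none.

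The 69 skipped-exon events concerned 30 distinct exons, 11 of PTBP1, 8 of PTBP2 and 11 of PTBP3. All 30 lay between an AG and a GT, had both splice sites annotated and fell within annotated coding sequence of at least 1 transcript. Of these, 27 were exons of a canonical transcript, 2 were forms of such an exon with another 3′SS, and 1 lay outside the canonical transcript. The exons ranged from 31 to 217 bases in PTBP1 and PTBP2 and from 34 to 175 bases in PTBP3.

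In PTBP1 the events gathered on a few exons. Exon 3 had 6 skipped-exon events and exon 11 had 5, numbers of events reached by 1.64% and 3.12% of all exons in the table. Exons 2, 4 and 10 had 4 each, exons 12 and 13 had 2 each, and exons 7 and 8 had 1 each. Exon 9 had 1 event in each of its 2 forms. Exons 5, 6 and 14 were not listed as skipped.

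In PTBP2 the listed exons stood at the 2 ends of the coding sequence. Exon 2 had 4 events, the canonical form of exon 9 had 2 and its longer form 1. Exons 3, 10, 11 and 13 had 2 events each and exon 12 had 1. Exons 4 to 8, which follow one another, were not listed as skipped. In PTBP3 the events were spread more evenly, with 3 each for exons 2, 3 and 5, 2 each for exons 4, 6, 7, 8 and 13, and 1 each for exons 9 and 10. PTBP3 exons 11 and 12 were not listed.

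Exons of equal length and with identity over 50% were paired in order between the canonical transcripts. There were 8 such pairs between PTBP1 and PTBP2, with 52.6% to 74.2% identical bases, and both exons were listed as skipped in 5 of them. PTBP1 and PTBP3 also had 8 pairs, with 56.4% to 76.6% identity, and both exons were listed in 4. Of the 6 pairs between PTBP2 and PTBP3, with 61.5% to 82.0% identity, both exons were listed in 2. The exon of 111 bases was the closest pair of PTBP2 and PTBP3, at 82.0%, and was listed in PTBP3 with 2 events but not in PTBP2. The exon of 93 bases showed the opposite, with 2 events in PTBP1, 2 in PTBP2 and none in PTBP3. Only the 34-base exon was an equal-length pair in all 3 comparisons and listed in all 3 genes. Most internal canonical exons were listed in each gene, namely 10 of 13 in PTBP1, 7 of 12 in PTBP2 and 10 of 12 in PTBP3. Whether paired exons were listed together more often than these shares give was not tested.

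Events of the same exon are set apart by their flanking exons. In 21 of the 69 events the flanks were the neighbours in the canonical transcript (8 of PTBP1, 7 of PTBP2 and 6 of PTBP3). The other 48 used more distant or non-canonical exons. The skipping junction was found in an annotated transcript for 15 of the 69 events (21.7%), beside 18.0% of all events of the table. Both inclusion junctions were annotated for 37 events (53.6%), beside 57.0% over the table.

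The 69 events used 51 distinct skipping junctions, 19 in PTBP1, 13 in PTBP2 and 19 in PTBP3, of which 11 were annotated. In PTBP1, 5 distinct junctions ended at exon 11 and 5 at exon 12, while 5 began at exon 8. In PTBP2, 4 distinct junctions began at exon 8. In PTBP3, 6 distinct junctions ended at exon 11 and began at each of the exons 4 to 9.

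By number of canonical exons left out, the widest junction was that of PTBP1 exons 1 and 12, which left out 10 of the 15 exons over 10854 bases of the gene. By bases of the gene, the widest joined PTBP3 exons 1 and 5 over 70870 bases. The PTBP1 junction of exons 1 and 12 was the skipping form of 3 events and left 6 codons before a stop. The PTBP1 junction of exons 2 and 11 left out the 8 exons 3 to 10 (1080 bases) but retained the short exon. It kept the annotated stop and encoded 197 codons. It was annotated in 1 protein-coding transcript. Joining PTBP1 exon 2 to exon 12 leaves the short exon out as well, and the form then stopped after 21 codons. That junction too was annotated, in 1 transcript classed as protein-coding.

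Exon length decides whether leaving out a single exon keeps the frame. The length was a multiple of 3 for 4 of 11 PTBP1 exons (36.4%, 95% Wilson interval 15.2% to 64.6%), 2 of 8 PTBP2 exons (25.0%, 7.15% to 59.1%) and 5 of 11 PTBP3 exons (45.5%, 21.3% to 72.0%). Over all exons of the table the share was 38.8%, which lies within all 3 intervals. The intervals cover counting error only and treat the exons of a gene as independent. Overlapping forms of the same exon were counted separately in PTBP1 and in PTBP2, so no conclusion is drawn from the intervals.

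**Figure D2:**
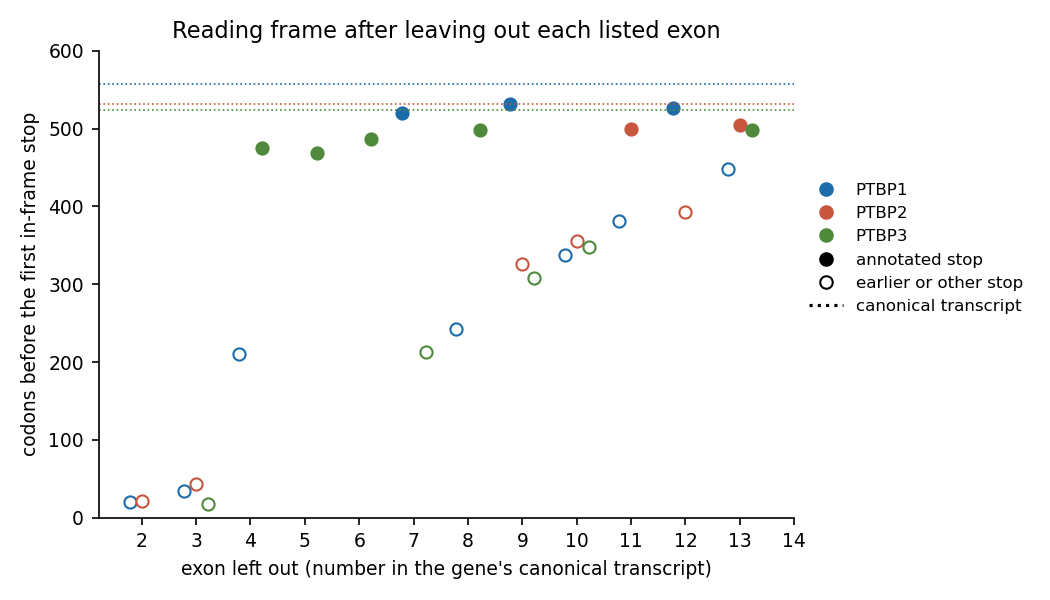
Codons before the first in-frame stop when a listed canonical exon is left out, by the number of that exon; filled points keep the annotated stop, open points meet another stop, and dotted lines give the canonical transcripts. Loss of exon 2 or 3 leaves 44 codons or fewer in PTBP1 and PTBP2, and the exons that keep the annotated stop leave 469 codons or more.

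Each of the 27 canonical exons was then left out singly. In PTBP1 the loss of exon 7, 9 or 12 kept the annotated stop and removed 37, 26 or 31 codons. The loss of exon 2, 3, 4, 8, 10 or 11 led to a stop 361 to 1447 bases before the last junction. Loss of exon 13 led to a stop in the last exon after 448 codons. In PTBP2 the loss of exon 11 removed 31 codons and that of exon 13 removed 26. Loss of PTBP2 exon 2 left 21 codons, and loss of exon 3 left 44. Loss of PTBP2 exon 9, 10 or 12 led to a stop after 326, 356 or 393 codons, 345, 361 or 67 bases before the last junction. In PTBP3 the loss of exon 4, 5, 6, 8 or 13 kept the annotated stop and removed 26 to 55 codons, while loss of exon 3 left 18 codons. Loss of PTBP3 exon 7, 9 or 10 led to a stop after 213, 308 or 348 codons. Exon 2 of PTBP3 holds the start codon, so its loss left no annotated start.

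Whole events were read in the same way where both flanks used canonical splice sites, which held for 64 of the 69. In 5 of these, all of PTBP3, skipping removed the annotated start. Of the other 59 skipping forms, 22 kept the annotated stop and 37 met another, in 33 of them more than 50 bases before the last junction. The skipping forms that kept the annotated stop were 11 of 31 in PTBP1, 5 of 13 in PTBP2 and 6 of 15 in PTBP3. Inclusion forms kept it in 16 of 31, 9 of 13 and 9 of 18. Thus the inclusion form of many events was itself out of frame, since it also left out canonical exons.

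Exon 9 of PTBP1 and exon 9 of PTBP2 were each listed as skipped in 2 forms and again as an alternative 3′SS. PTBP1 exon 9 has no equal-length partner in PTBP2, while PTBP3 exon 8 matches it in length, at 78 bases, and at 64.1% of positions. Both exons are shown with 100 intron bases before and 12 after, since they differ in the tract before the exon.
PTBP1 exon 9, chr19:805392-805581, plus strand: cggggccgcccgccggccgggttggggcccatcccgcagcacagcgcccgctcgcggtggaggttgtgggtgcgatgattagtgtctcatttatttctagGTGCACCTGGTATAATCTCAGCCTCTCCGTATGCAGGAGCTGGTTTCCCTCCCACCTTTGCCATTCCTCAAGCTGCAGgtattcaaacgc
PTBP3 exon 8, chr9:114997088-114997277, minus strand: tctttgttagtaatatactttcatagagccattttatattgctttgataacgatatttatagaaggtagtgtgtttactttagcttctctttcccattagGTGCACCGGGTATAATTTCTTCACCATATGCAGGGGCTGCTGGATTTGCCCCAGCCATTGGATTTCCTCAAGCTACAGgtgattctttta

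The 78-base form of PTBP1 exon 9 encodes 557 codons in the canonical transcript. The 57-base form begins 21 bases later, after an AG inside the exon (at position 805513 of chromosome 19), and gives 550 codons. Leaving the exon out gives 531. All 3 forms share the frame and the annotated stop, and the skipping junction occurs in 3 annotated transcripts. The 23 bases around the 2 3′SS are given with the AG in capitals.
PTBP1 exon 9, first 3′SS: agtgtctcatttatttctAGgtg
PTBP1 exon 9, second 3′SS: tgcacctggtataatctcAGcct

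The score of a splice site is the sum of log2 ratios of its base frequencies at annotated sites over equal frequencies. The first site of PTBP1 exon 9 scored 10.3 and lay at the 63.5th percentile of all exons in the table, and the second scored 2.56 at the 3.07th. PTBP2 exon 9 showed a smaller gap. Its outer 3′SS, 15 bases upstream, scored 5.64 (14.5th percentile) and its canonical site 6.57 (21.4th percentile), and the longer form gave 536 codons in place of 531.
PTBP2 exon 9, outer 3′SS: atgctttattttaaaattAGggc
PTBP2 exon 9, canonical 3′SS: attagggcttcctgttgcAGctg

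The last exon of PTBP2 had 2 3′SS only 3 bases apart, listed with exon 12 and with exon 13 as the flank. The outer site scored 10.9 (70.3rd percentile) and the canonical one 6.55 (21.2nd percentile), and the choice adds or removes 1 codon. PTBP2 exon 1 had 2 5′SS 24 bases apart, of which the outer one lay at the 72.2nd percentile and the canonical one at the 45.5th. The longer exon gave 539 codons. In PTBP3, exon 2 had 2 5′SS 9 bases apart, at the 78.4th and 73.9th percentile, and the shorter exon gave 521 codons in place of 524. PTBP3 exon 14 was the only member of these tables whose forms differ in frame. Its inner 3′SS lies 3610 bases inside the exon, scored 13.4 (90.4th percentile) against 11.3 (74.2nd) for the canonical site, and was in no annotated junction of the listed events. Joined to exon 13 it gave another stop, after 547 codons.

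All exons of the 27 mutually exclusive events were also listed as skipped. In turn, 20 of the 30 listed skipped exons took part in such events, beside 55.3% of all exons of the skipped-exon table. The other counts of this paragraph have no share over all mutually exclusive events beside them and are a description only. The lengths of the 2 alternative exons differed by a multiple of 3 in 15 of the 27, and no event had exons of equal length. In 20 events the 2 exons are joined to each other in an annotated transcript, and in 3 events both forms kept the annotated stop. Those 3 were of PTBP1 and set exon 3 against exon 11, exon 4 against exon 10, and exon 8 against exon 11. Exon 11 of PTBP1 took part in 6 mutually exclusive events and PTBP2 exon 10 in 3, while PTBP3 exon 10 took part in none. PTBP3 exon 5 was in 5.

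Over whole genes, the string TCTT was found before 3 of the 11 PTBP1 exons, 6 of the 8 PTBP2 exons and 7 of the 11 PTBP3 exons, beside 61.8% of all exons. The median count in 100 bases was 0 for PTBP1 and 1 for PTBP2, PTBP3 and all exons. In 200 bases it was 0 for PTBP1, 1.5 for PTBP2 and 3 for PTBP3, beside 1 for all exons. Within 100 bases, PTBP1 exons had at most 1. In PTBP3, exon 7 had 4 within the same 100 bases, and exons 8 and 9 had 2 each. PTBP3 exon 4, the PTBP3 exon outside the canonical transcript and PTBP2 exon 13 had 3 each there. The second string, CTCTCT, was found before PTBP1 exon 2 and PTBP2 exons 10 and 11, and before 8.35% of all exons. The 2 strings can share letters.

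After the exon, PTBP3 exon 9 stood out, with 9 such strings in 100 bases, a count reached by 7 exons of the table. The stretch is shown because these repeats fill its far end. It covers only the first 100 bases of an intron of 685 bases, after which the 34-base exon begins. That exon had 0 such strings in the 200 bases before it.
PTBP3 exon 9, chr9:114994279-114994530, minus strand: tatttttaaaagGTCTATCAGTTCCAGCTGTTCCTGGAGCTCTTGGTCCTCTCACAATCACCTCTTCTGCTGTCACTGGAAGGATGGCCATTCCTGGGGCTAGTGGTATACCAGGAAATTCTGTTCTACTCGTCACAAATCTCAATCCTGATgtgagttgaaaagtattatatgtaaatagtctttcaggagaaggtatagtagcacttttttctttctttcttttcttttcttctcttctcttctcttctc

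**Figure D3:**
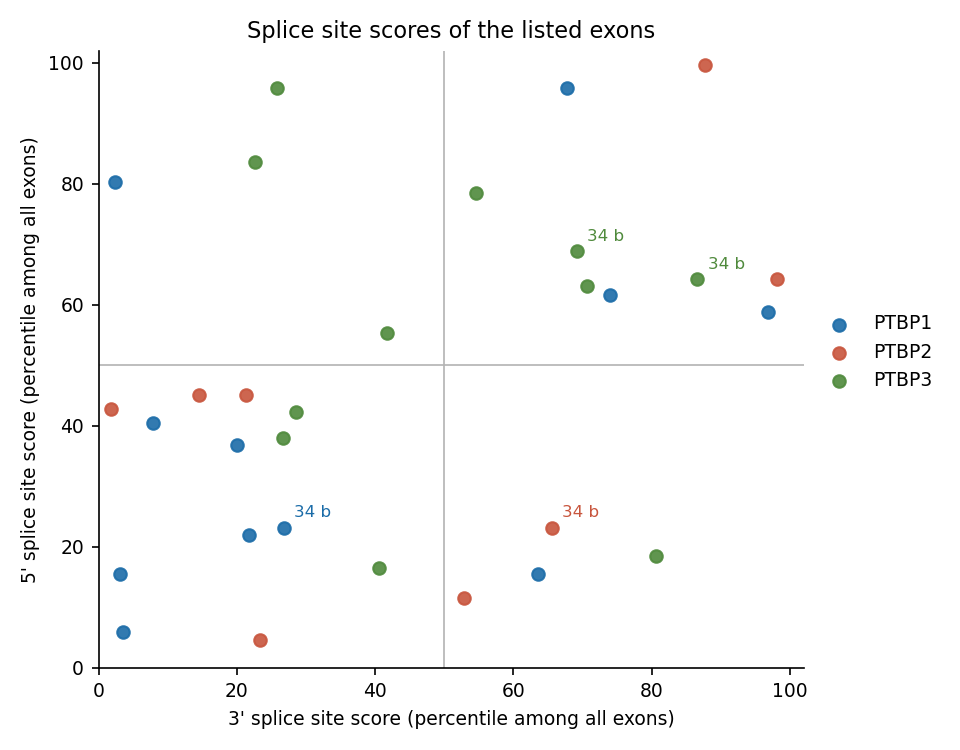
Score percentile of the 3′SS (horizontal) and of the 5′SS (vertical) of each listed exon among all exons of the skipped-exon table; "34 b" marks exons of 34 bases and grey lines the 50th percentile. PTBP1 exon 11 and PTBP2 exon 10 share a 5′SS at the 23.1st percentile, and both 34-base exons of PTBP3 lie above the 50th on both axes.

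Splice site scores of the members spanned most of the range found over the table. The median 5′SS percentile was 36.8 for PTBP1, 43.9 for PTBP2 and 63.1 for PTBP3, and the median 3′SS percentile was 21.8, 38.1 and 41.7. Exon 2 of PTBP1 had a 3′SS at the 96.8th percentile, and exon 2 of PTBP2 one at the 98.1st. Exon 3 had a strong 5′SS in both, at the 95.8th and 99.6th percentile. Weak sites also recurred. The 3′SS of the 93-base exon lay at the 7.92nd percentile in PTBP1 (exon 12) and at the 1.85th in PTBP2 (exon 11). For the 217-base exon that follows it, the 5′SS lay at the 5.92nd percentile in PTBP1 and at the 11.5th in PTBP2.

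The short exon itself had a 3′SS at the 26.8th percentile in PTBP1, the 65.6th in PTBP2 and the 69.2nd in PTBP3. Its 5′SS lay at the 23.1st percentile in PTBP1 and PTBP2 and at the 68.8th in PTBP3. PTBP3 thus had the highest score on both sides and the lowest count of TCTT before the exon, while PTBP2 had the highest count.

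One listed PTBP3 exon is not part of the canonical transcript. It also measured 34 bases, at chr9:115092721-115092754 between exons 1 and 2, and is in 3 annotated transcripts. It had 1 skipped-exon event, whose skipping junction joins exon 1 to the shorter form of exon 2 and is annotated. It does not match the short exon 10 described above, since it precedes the canonical start codon. Its addition to the canonical transcript left the 524 codons as they were. The exon lies within annotated coding sequence of at least 1 transcript, whose frame was not read here. C and T made up 76% of the 100 bases before it, at the 99.3rd percentile.

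Genes whose proteins act with PTBP1 or whose exons it is known to regulate were listed as follows. All 5 partners (RAVER1, RAVER2, MATR3, HNRNPL and HNRNPLL) had skipped-exon events, from 6 for HNRNPLL to 52 for RAVER1, a co-repressor of PTBP1. All 12 target genes had them too, from 3 for CLTB to 32 for CTTN, with a median of 9. The median over the 11965 genes with such events was 6, and the share of all genes that had them is not given. PKM, whose mutually exclusive exons encode 2 pyruvate kinase forms, had 7, and TPM1, a tropomyosin gene, had 13. These are counts of events and not of changes.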

How the data were processed

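Polyadenylated RNA of HEK293T cells was sequenced as paired-end reads, with 1 library per condition. Per the labels and the submitters' processing notes, reads were aligned with STAR 2.5.1 to hg19 (GRCh37), and the authors ran rMATS. The rMATS version and its annotation are not given in the sources used here. The authors deposited 5 event tables with event coordinates, effective lengths, reads and inclusion levels per numbered library, and the p-value, FDR and inclusion level difference of their own comparison. The 30 columns of reads and inclusion levels match no label and were not used. The columns of the authors' comparison were not used either. The depth per library is therefore not given, and groups were not compared.

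Coordinates are 1-based. As a check of the build, 98.9% of the 67154 exons were preceded by AG and followed by GT. In all 69 skipped-exon events of the 3 genes the deposited effective length of the inclusion form was longer than that of the skipping form by exactly the exon, so reads on exon bodies were counted. Exons were numbered, and junctions looked up, in GENCODE release 44 lifted to GRCh37. A form was read as the canonical transcript with the exons of the event in place, from the annotated start to the first stop. Splice site scores used 9 bases (3 of the exon and 6 of the intron) at the 5′SS and 23 bases (20 of the intron and 3 of the exon) at the 3′SS, with a pseudocount of 0.5 and 300851 and 300275 annotated sites. Percentiles place ties at their midpoint. The motif, score and frame code was tested on simulated data. Exons sharing coordinates under different symbols took the symbol that sorts first.

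Every listed exon is accounted for. Exons were described singly when they carried most events of their gene, changed the frame or stood in more than 1 table. The members, the partner and target lists and these rules were chosen with earlier results of these data known. The alternatives were distinct coordinate sets, ranking among genes with 10 or more exons, merged or annotated exons only, coding exons only, windows of 50 and 200 bases, a window without the 20 bases next to the exon, the string CTCTCT, and scores built from the listed exons. Counts after the exon were added after seeing the data. Protein sequences were not used here. Software was Python 3.11.15 with pandas 2.3.3, numpy 2.4.6, matplotlib 3.10.9 and scipy 1.17.1.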

Additional observations from a re-analysis of the deposited data

How the results depend on the processing

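The percentile of skipped-exon events was also computed against genes with 10 or more distinct listed exons, and was 77.8 in place of 95.6 for PTBP1 and 52.1 in place of 89.7 for PTBP3. For PTBP2 it was 23.1 in place of 81.5, but PTBP2 has 8 such exons and does not belong to that set. Because the set is chosen by a number tied to the events, lower percentiles follow from its construction. Counts of events were the same as distinct coordinate sets, and merging overlapping exons gave 10 exons for PTBP1 and 7 for PTBP2. The shares of exons with a length that is a multiple of 3 did not move, because all listed exons of the 3 genes are coding. With 200 bases before the exon the median count of TCTT was 1.5 for PTBP2 and 3 for PTBP3, beside 1 for all exons, and without the 20 bases next to the exon it was 0.5 for PTBP2, beside 0 for all exons. The median count of CTCTCT was 0 for PTBP2 and PTBP3, as for all exons. With scores built from the listed exons, the median 5′SS percentile was 35.0 for PTBP1 and 61.9 for PTBP3, and the median 3′SS percentile was 40.9 for PTBP2 and 40.7 for PTBP3. In the 100 bases after the exon, a window chosen after seeing the data, the median count of TCTT was 0 for PTBP1, 2 for PTBP2 and 1 for PTBP3, beside 0 for all exons, 47.0% of which had at least 1. No paired analysis was possible because no result comes from a test, with only 1 library a condition.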
